A study of Mus musculus with 5 samples.

Results

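The genes described here are the mouse cytochrome P450 genes of families 1 to 3, taken as every gene of the deposited liver expression table whose symbol is Cyp, a family number from 1 to 3, 1 subfamily letter and a gene number. This choice used the symbols alone and gave 58 of the 23793 genes in the table, and it left out 5 further genes of the same families because of their spelling (Cyp2ab1, Cyp3a41a, Cyp3a41b and the pseudogenes Cyp2c53-ps and Cyp2d37-ps). Of the 58 genes, 39 averaged 0.5 FPKM or more across the 5 livers and were tested, 13 lay above 0 but under that level, and 6 were listed at 0 in all 5 livers (Cyp2b19, Cyp2b23, Cyp2c66, Cyp2j12, Cyp2j13 and Cyp2w1).

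Cytochrome P450s are heme enzymes of the endoplasmic reticulum that oxidise small molecules with electrons from P450 reductase. Families 1 to 3 hold most enzymes that clear drugs and other foreign compounds in hepatocytes, and some members also act on steroids, bile acids, arachidonic acid or vitamin D. Many are switched on by the receptors AhR, CAR and PXR, several depend on the pericentral position of the hepatocyte in the lobule, and in mice a number are held at different levels in males and females by the pattern of growth hormone release.

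RNA was sequenced from liver tissue of 3 Lifr fl/fl;Alb-Cre mice (knockout, genotype label Lifrfl/fl;Crealb/alb) and 2 Lifr fl/fl mice (control), all on a C57BL/6 background. Their age is 12 weeks in the labels and 3 months in the methods, and the study's reporting summary gives male animals. Both groups carry the floxed alleles of Lifr, the receptor of leukemia inhibitory factor. The knockout group also carries Cre recombinase driven by the albumin promoter, which removes an exon of Lifr in hepatocytes, so the undeleted exons and the Lifr RNA of other liver cells are still counted. No group has Cre without floxed Lifr, so the effect of Cre and that of Lifr loss cannot be told apart.

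The values are FPKM, in which fragment counts are scaled to transcript length and to the mapped fragments of the library, and the depth per liver is unknown. The columns of a group list each gene's values in sorted text order (15586 of 15586 genes with distinct values, against 8.33% by chance), so they are given per group, from low to high, without the label of a mouse. Lifr had 32.8, 44.3 and 54.8 FPKM in knockout livers, against 132 and 151 FPKM in control livers (log2 fold change -1.71, SE 0.19, limma adjusted p = 0.0045), and that call was lost when 1 control value was left out (adjusted p = 0.23 and 0.30). Among hepatocyte markers, Alb was listed at 0 in all 5 livers while the other 6 were detected and 0 of these 6 were called by limma or had an unadjusted p under 0.05. All 6 Kupffer cell markers had a log2 fold change above 0, 5 of them at an unadjusted p under 0.05 and 0 after adjustment with limma, and their summed group means were 194 FPKM in knockout livers and 135 FPKM in control livers. Among all genes tested, 54.9% were above 0 and 6.08% were higher at that p. The 4 neutrophil markers (S100a8, S100a9, Ngp and Camp) summed to 7.69 FPKM in knockout livers and 2.54 FPKM in control livers, and S100a9 rose (log2 fold change 1.59, limma adjusted p = 0.018), a call kept in 7 of 8 other settings and in 3 of 5 fits without 1 value. In bulk tissue, fewer cells of a type and less RNA per cell cannot be told apart.

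The question here was whether loss of Lifr in hepatocytes is accompanied by changed levels of these enzymes. Of the 39 tested members 1, Cyp2c68, rose and 0 fell, at an adjusted p under 0.05 over the 11687 genes tested (limma on log2(FPKM + 0.1), Benjamini-Hochberg). Over all genes tested 0.359% were called higher, 0.205% lower and 0.565% in either direction. At an unadjusted p under 0.05, 8 of the 39 tested members were higher and 2 lower, against 6.08% and 3.56% of all genes and 9.63% in either direction. In 9 members every knockout value lay above every control value, against 15.1% of all genes, and in 1 member, Cyp2u1, every knockout value lay below, against 10.7%. The log2 fold change was above 0 in 28 of 39 members (71.8%) and in 54.9% of all genes, with a median of 0.24 over the members (range -0.97 to 1.61) and 0.03 over all genes. Cyp2c39 and Cyp1a1, both above 0, averaged 0.5 FPKM or more only because of the knockout livers (control means of 0.379 and 0.471 FPKM). Cyp2c39 is also among the 9 members with every knockout value above. The members come from the same livers and some share sequence, so these counts are a description and were not tested as a set.

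**Figure D1:**
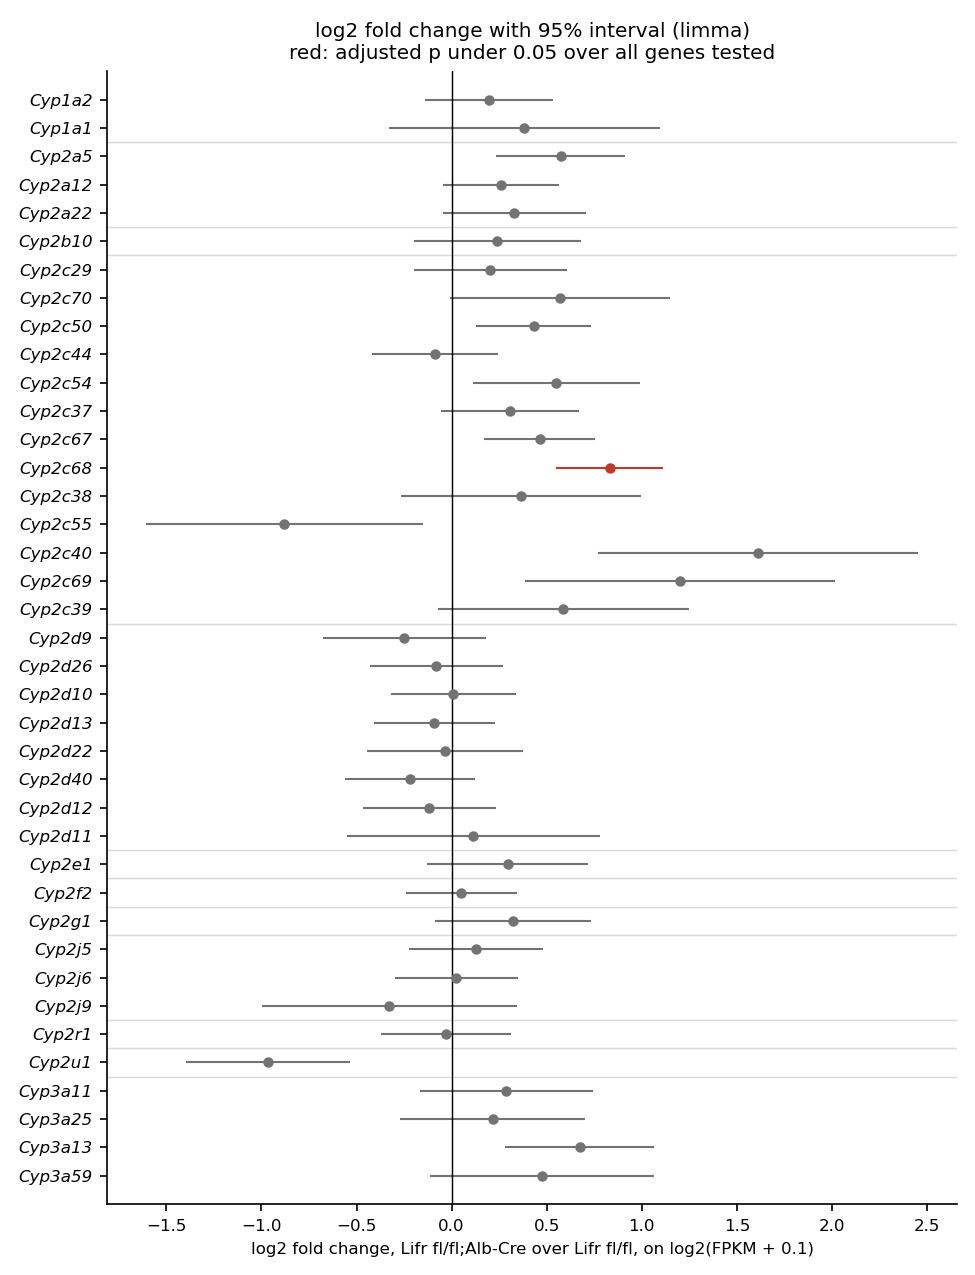
Log2 fold change, Lifr fl/fl;Alb-Cre over Lifr fl/fl, on log2(FPKM + 0.1), for the 39 tested genes grouped by subfamily. Points are limma estimates with 95% intervals and red marks an adjusted p under 0.05. Cyp2c68, at 0.83, is the only red point, the Cyp2d points run from -0.25 to 0.11, and Cyp2u1 lies lowest at -0.97.

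The 3 largest estimates among the members, those of Cyp2c40, Cyp2c69 and Cyp2c68, came from neighbours on chromosome 19. With Cyp2c67 they form a row of 4 genes, in the order Cyp2c67, Cyp2c68, Cyp2c40 and Cyp2c69, within 277.9 kb (mm10 chr19:39608844-39886769). All 4 are read from the minus strand. The regions around their starts are printed here because all 4 neighbours had every knockout value above every control value and because their transcripts are near copies. Each sequence runs from 250 bases before to 50 bases after the start of transcription, 5′ to 3′ on the strand of the gene (RefSeq, GRCm38.p6), at chr19:39648993-39649292 for Cyp2c67, chr19:39741052-39741351 for Cyp2c68, chr19:39812765-39813064 for Cyp2c40 and chr19:39886720-39887019 for Cyp2c69. Capitals mark CAAAGTCCA, a binding motif of the hepatocyte factor HNF4A, and CACGC, the reverse complement of the AhR core motif GCGTG. Cyp2c55, on the plus strand at chr19:39006769-39007068, is printed too. It was picked by its value, as the Cyp2c gene with the lowest estimate.
Cyp2c67: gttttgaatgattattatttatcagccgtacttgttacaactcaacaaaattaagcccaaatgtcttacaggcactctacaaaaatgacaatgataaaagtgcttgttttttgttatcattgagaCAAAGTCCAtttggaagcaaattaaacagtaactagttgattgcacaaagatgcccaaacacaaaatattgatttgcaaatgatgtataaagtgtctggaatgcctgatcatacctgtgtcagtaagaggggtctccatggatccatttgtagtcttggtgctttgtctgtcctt
Cyp2c68: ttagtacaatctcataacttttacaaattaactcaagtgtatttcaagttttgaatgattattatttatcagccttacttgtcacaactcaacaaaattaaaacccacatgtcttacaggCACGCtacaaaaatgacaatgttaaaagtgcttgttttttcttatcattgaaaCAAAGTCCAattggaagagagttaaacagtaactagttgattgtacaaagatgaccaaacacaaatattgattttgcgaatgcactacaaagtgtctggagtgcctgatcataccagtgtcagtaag
Cyp2c40: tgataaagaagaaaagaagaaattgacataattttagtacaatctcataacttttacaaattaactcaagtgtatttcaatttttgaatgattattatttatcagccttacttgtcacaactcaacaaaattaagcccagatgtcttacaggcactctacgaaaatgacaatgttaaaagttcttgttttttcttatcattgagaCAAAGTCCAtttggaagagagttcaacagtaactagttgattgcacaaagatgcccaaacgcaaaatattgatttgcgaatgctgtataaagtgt
Cyp2c69: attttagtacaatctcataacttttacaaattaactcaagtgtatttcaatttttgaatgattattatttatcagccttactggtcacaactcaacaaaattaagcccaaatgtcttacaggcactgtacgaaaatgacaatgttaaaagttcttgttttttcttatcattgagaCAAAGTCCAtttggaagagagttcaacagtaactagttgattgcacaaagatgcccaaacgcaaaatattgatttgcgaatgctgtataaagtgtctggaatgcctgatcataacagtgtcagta
Cyp2c55: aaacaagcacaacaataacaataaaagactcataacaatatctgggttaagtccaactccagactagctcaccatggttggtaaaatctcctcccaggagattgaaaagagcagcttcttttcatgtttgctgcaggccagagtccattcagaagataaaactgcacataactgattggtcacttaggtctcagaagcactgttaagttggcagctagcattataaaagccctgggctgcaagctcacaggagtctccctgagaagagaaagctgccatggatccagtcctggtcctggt

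CAAAGTCCA lay 125 bases before the start of Cyp2c67, 77 before Cyp2c68, 45 before Cyp2c40 and 75 before Cyp2c69, on the strand of the gene, and these distances depend on the annotated start. Searched on both strands, it was found in 129 of 27025 mouse promoters of the same length (0.48%), in 8 of the 50 members with a promoter in the table and in 6 of 13 Cyp2c promoters, Cyp2c65 and Cyp2c70 included. It was absent from the printed Cyp2c55 promoter. It was also absent from those of Cyp2c29, Cyp2c37, Cyp2c38, Cyp2c39 and Cyp2c50, whose log2 fold changes were above 0 (0.20, 0.31, 0.36, 0.59 and 0.43). Whether the motif goes with the change was not tested. Of their 300 positions, the promoters of Cyp2c68 and Cyp2c69 shared 92.3%, those of Cyp2c40 and Cyp2c69 89.0% and those of Cyp2c68 and Cyp2c40 83.7%. The Cyp2c67 window shared 77.3% with Cyp2c69, 76.7% with Cyp2c68 and 68.3% with Cyp2c40. Its motif lies farther from the annotated start than in the other windows, so the windows are offset. Positions without a counterpart in the other window count as not shared. These percentages therefore do not show that the Cyp2c67 sequence is less alike. The motif is therefore not independent between these related sequences. The nuclear receptor motif AGGTCA was in 18 of 50 member promoters and 16.04% of all, GCGTG in 9 of 50 and 32.46%, the STAT5 motif TTCNNNGAA in 2 of 50 and 8.47%, and TTATGTAA, the motif of the PAR bZIP factors, in 0 of 50 and 0.95%. The motifs do not overlap in the printed sequences, and a match is a string of letters and no proof of binding.

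Cyp2c68 (XLOC_010746) had 84.2, 99.6 and 100.4 FPKM in knockout livers, against 52.4 and 53.6 FPKM in control livers. All 3 knockout values stood above both control values. The log2 fold change was 0.83 (SE 0.13, 95% interval 0.55 to 1.11, limma adjusted p = 0.023), or 1.78-fold. The call was kept in 6 of 8 other settings. It was lost with no filter on low values (limma adjusted p = 0.091), without a variance trend (limma adjusted p = 0.078) and in 3 of 5 fits that left out 1 value (limma adjusted p = 0.051, 0.35 and 0.37), with the estimate between 0.79 and 0.91 in those 5 fits.

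Cyp2c40 (XLOC_010747), which oxidises arachidonic acid and is female-biased in mouse liver, had 3.64, 6.67 and 11.2 FPKM in knockout livers and 1.65 and 2.57 FPKM in control livers. The groups did not overlap, but the highest knockout value was more than 3 times the lowest, and the log2 fold change of 1.61 (SE 0.38) did not pass (limma adjusted p = 0.14). Cyp2c69 (XLOC_010748), also female-biased, had 1.05, 2.03 and 3.22 FPKM in knockout livers, against 0.714 and 0.841 FPKM in control livers, with a log2 fold change of 1.20 (SE 0.36, limma adjusted p = 0.27). It too had separate groups and a wide spread among the knockout livers. Cyp2c67 (XLOC_010745) had 120.4, 132 and 147 FPKM in knockout livers and 92.0 and 101 FPKM in control livers, with a log2 fold change of 0.46 (SE 0.13, limma adjusted p = 0.22). Its groups were separate and its spread was narrow. Of the 4 neighbours, the 2 with the highest levels, Cyp2c67 and Cyp2c68, had coefficients of variation of 10.2% and 9.66% among knockout livers, against 53.2% and 51.8% for the lowly expressed Cyp2c40 and Cyp2c69.

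The values of these 4 genes are uncertain because their transcripts are near copies and reads that mapped to several places were dropped. Between any pair of them, 91.8% to 98.0% of the bases of the shorter transcript were identical (GENCODE M21). Of all stretches of 50 bases in the transcript, 72.1% of those of Cyp2c40, 54.8% of Cyp2c69, 52.8% of Cyp2c67 and 43.3% of Cyp2c68 occur in another gene. How this moves the values was not tested. Among the 38 tested members with a transcript in that annotation, 16 share more than 20% of such stretches with another gene and 6 share none (Cyp2c44, Cyp2c70, Cyp2f2, Cyp2j9, Cyp2r1 and Cyp3a13).

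**Figure D2:**
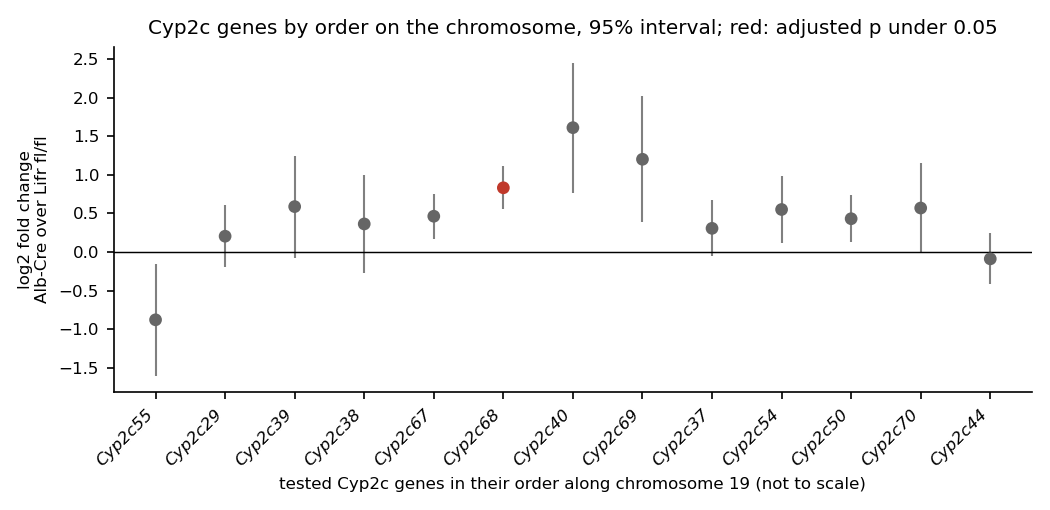
Log2 fold change, Lifr fl/fl;Alb-Cre over Lifr fl/fl, with 95% intervals for the 13 tested Cyp2c genes in their order along chromosome 19, not to scale. Red marks an adjusted p under 0.05. Cyp2c67, Cyp2c68, Cyp2c40 and Cyp2c69 stand side by side at 0.46, 0.83, 1.61 and 1.20, and Cyp2c55 at -0.88 and Cyp2c44 at -0.09 are at the ends.

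Of the 13 tested Cyp2c genes, 11 had a log2 fold change above 0, 6 were higher and 1 was lower at an unadjusted p under 0.05, and 6 had all knockout values above all control values. Their median log2 fold change was 0.46. Over all genes tested, 54.9% were above 0, and 6.08% were higher and 3.56% lower at an unadjusted p under 0.05. All knockout values lay above all control values in 15.1% of all genes tested. Without the Cyp2c genes the remaining 26 members had a median of 0.12, with 17 above 0, and 3 of the 26 (11.5%) had all knockout values above the controls. No test of Cyp2c against the other subfamilies was made.

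Several of the abundant Cyp2c enzymes make epoxides of arachidonic acid and are induced through CAR. Cyp2c50 had 438, 455 and 467 FPKM in knockout livers, against 303 and 373 FPKM in control livers, with separate groups and a log2 fold change of 0.43 (unadjusted p = 0.0098, limma adjusted p = 0.29). Cyp2c54 had 125, 171 and 196 FPKM in knockout livers, against 96.0 and 126 FPKM in control livers, so its groups overlapped (log2 fold change 0.55, limma adjusted p = 0.40). Cyp2c29, the Cyp2c gene with the highest level, had 772, 814 and 1035 FPKM in knockout livers and 647 and 875 FPKM in control livers, again overlapping (log2 fold change 0.20, 95% interval -0.20 to 0.61). The groups also overlapped for Cyp2c37 (log2 fold change 0.31), Cyp2c38 (0.36) and Cyp2c44 (-0.09). Cyp2c39 was separate at a low level, with 0.439, 0.686 and 0.774 FPKM in knockout livers and 0.341 and 0.418 FPKM in control livers (log2 fold change 0.59, limma adjusted p = 0.57). It reached the level for testing only through its knockout values.

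Cyp2c70, which forms the muricholic acids that set mouse bile acids apart, had 312, 577 and 626 FPKM in knockout livers, against 310.5 and 341 FPKM in control livers. Of the knockout values 1 was at the level of the controls and the other 2 were well above it, and the log2 fold change of 0.57 did not pass (limma adjusted p = 0.53). It passed in 1 of 5 fits that left out 1 value per gene, drawn at random within a group (limma adjusted p = 0.038), as did Cyp2c40 (0.012), Cyp2c69 (0.027) and Cyp2c55 (0.026). Its transcript shares no stretch of 50 bases with another gene. Cyp2c55, which hydroxylates arachidonic acid and is induced through CAR and PXR, went the other way, with 3.32, 4.14 and 8.37 FPKM in knockout livers and 7.54 and 10.9 FPKM in control livers. Of the 3 knockout values 1 lay inside the control range (log2 fold change -0.88, SE 0.33, limma adjusted p = 0.41).

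**Figure D3:**
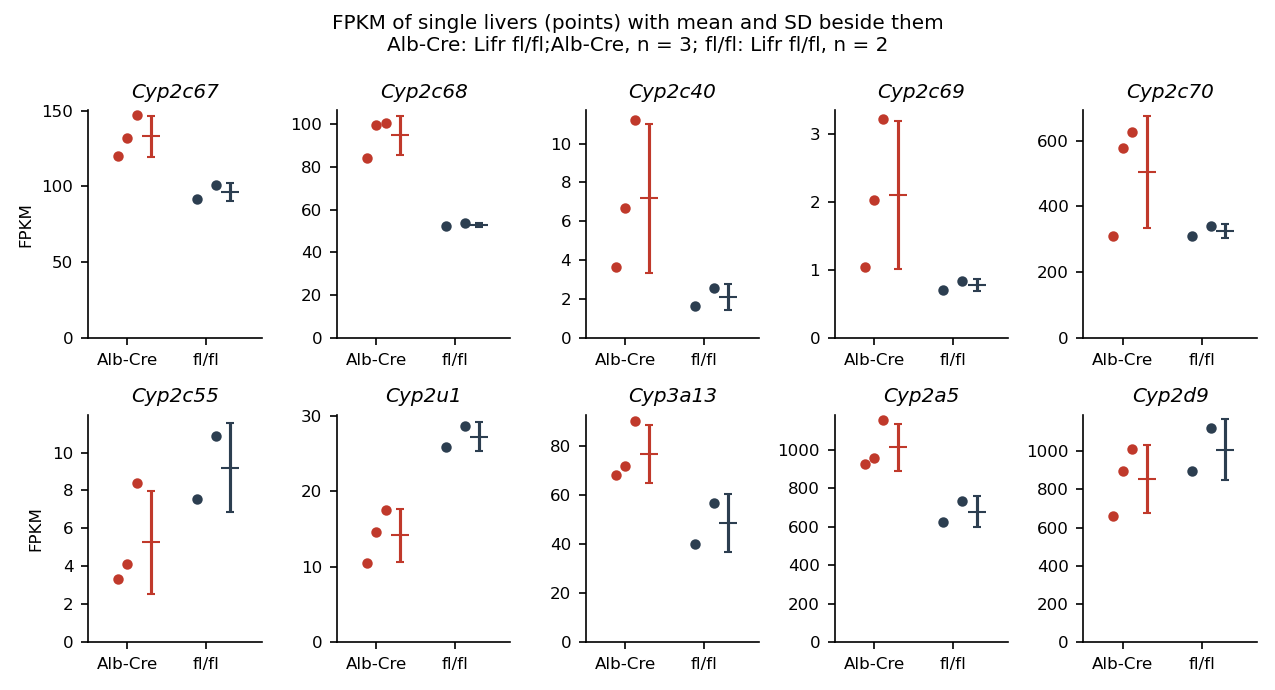
FPKM of 10 members in Lifr fl/fl;Alb-Cre livers (red, n = 3) and Lifr fl/fl livers (dark, n = 2), on axes from 0, with each group's mean and SD beside its points. The groups are separate for Cyp2c67, Cyp2c68, Cyp2c40, Cyp2c69, Cyp2u1, Cyp3a13 and Cyp2a5, and they overlap for Cyp2c70, Cyp2c55 and Cyp2d9.

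Cyp2u1 (XLOC_013897; mm10 chr3:131290491-131304157), a hydroxylase of long-chain fatty acids, had the lowest estimate of all members. It had 10.5, 14.6 and 17.5 FPKM in knockout livers, against 25.9 and 28.6 FPKM in control livers. The mean was 14.2 ± 3.51 FPKM in knockout livers (SD, n = 3) and 27.2 ± 1.97 FPKM in control livers (SD, n = 2). All 3 knockout values were below both controls. The log2 fold change of -0.97 (SE 0.19, 95% interval -1.40 to -0.54) did not pass over all genes (limma adjusted p = 0.072), and it passed with robust moderation (limma adjusted p = 0.048) and in 1 of 5 fits without a value (limma adjusted p = 0.032). Of the stretches of 50 bases in its transcript, 3.14% occur in another gene. Cyp2r1, a hydroxylase that starts the activation of vitamin D, had 13.3, 13.3 and 13.6 FPKM in knockout livers, between the 11.5 and 16.3 FPKM of the control livers (log2 fold change -0.03, 95% interval -0.37 to 0.31).

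In the Cyp2a and Cyp3a subfamilies all 7 tested members had estimates above 0, and 3 had separate groups. Among all genes tested, 54.9% were above 0 and 15.1% had every knockout value above every control value. Cyp2a5, which hydroxylates coumarin and nicotine, had 928, 956 and 1156 FPKM in knockout livers and 624 and 736 FPKM in control livers, with every knockout value above the controls (log2 fold change 0.57, SE 0.15, limma adjusted p = 0.20). Cyp3a13, an enzyme of liver and intestine, had 68.3, 71.8 and 90.0 FPKM in knockout livers, against 40.1 and 56.8 FPKM in control livers, also separate (log2 fold change 0.67, SE 0.18, limma adjusted p = 0.20). Cyp2a12 had 458, 486 and 521 FPKM in knockout livers and 373 and 445 FPKM in control livers (log2 fold change 0.26, limma adjusted p = 0.59). Cyp2a22 and Cyp3a59 overlapped, at log2 fold changes of 0.33 and 0.48. Cyp2a5 shares 40.8% of its stretches of 50 bases with other genes, most of them with Cyp2a4, and Cyp3a13 shares none.

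Cyp3a11, the main drug-metabolising Cyp3a enzyme of mouse liver and a target of PXR, was the second most abundant member. It had 2509, 3103 and 3559 FPKM in knockout livers, against 2073 and 2962 FPKM in control livers, so that the lowest knockout value lay within the control range. Its log2 fold change of 0.29 had a 95% interval of -0.16 to 0.74 (limma adjusted p = 0.70). Cyp3a25 overlapped too, at 378, 483 and 530.2 FPKM in knockout livers and 308 and 508 FPKM in control livers (log2 fold change 0.22).

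Cyp2e1, which oxidises ethanol, acetaminophen and carbon tetrachloride, was the most abundant member and rank 13 of the whole table. It had 3669, 4209 and 5459 FPKM in knockout livers, against 3345 and 3817 FPKM in control livers, with overlap between the groups and a log2 fold change of 0.30 (95% interval -0.13 to 0.72, limma adjusted p = 0.67). Cyp2f2, known for the bioactivation of naphthalene, had 1212, 1219 and 1319 FPKM in knockout livers and 1178 and 1234 FPKM in control livers. These values lay close together in both groups, and the 95% interval of its log2 fold change of 0.05 ran from -0.24 to 0.34.

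**Figure D4:**
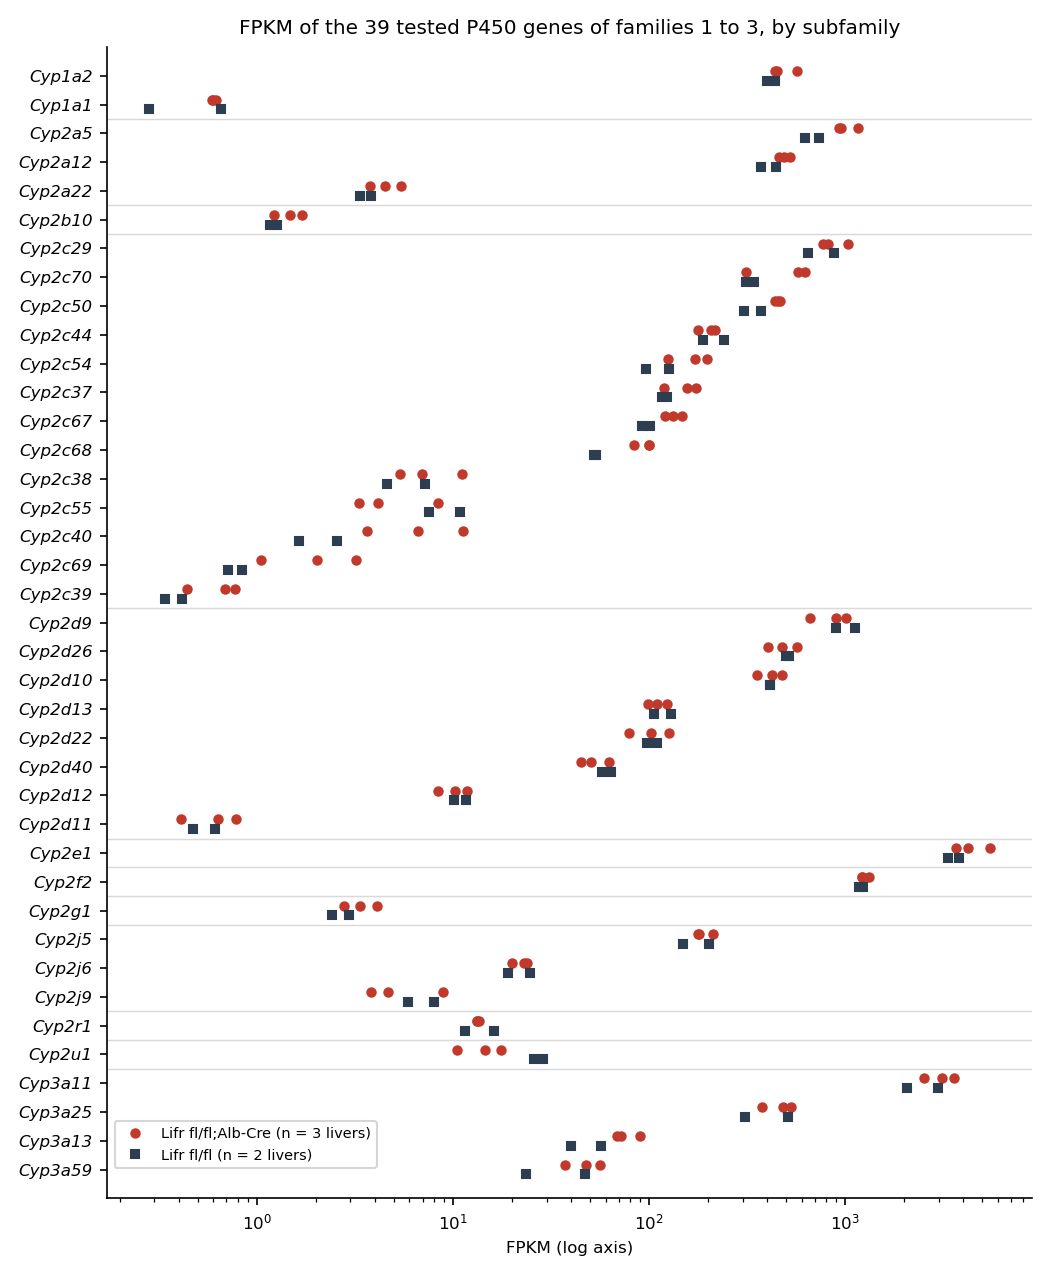
FPKM on a log axis for the 39 tested genes by subfamily, with Lifr fl/fl;Alb-Cre livers as red circles (n = 3) above Lifr fl/fl livers as dark squares (n = 2). Levels run from under 1 FPKM for Cyp2c39, Cyp1a1 and Cyp2d11 to over 2000 FPKM for Cyp2e1 and Cyp3a11.

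The Cyp1 genes are the classical targets of AhR, the receptor of dioxins and polycyclic hydrocarbons. Cyp1a2, which oxidises caffeine, had 437, 447 and 570.3 FPKM in knockout livers, against 400.1 and 439.6 FPKM in control livers (log2 fold change 0.20, limma adjusted p = 0.71). Cyp1a1, low without an AhR ligand, had 0.592, 0.597 and 0.620 FPKM in knockout livers and 0.283 and 0.658 FPKM in control livers, with the knockout values inside the control range (log2 fold change 0.38). Cyp1b1 stayed under 0.5 FPKM. Cyp2b10, the gene most used as a readout of CAR, had 1.23, 1.48 and 1.70 FPKM in knockout livers and 1.17 and 1.27 FPKM in control livers (log2 fold change 0.24, 95% interval -0.20 to 0.68). It was thus low in both groups.

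The Cyp2d genes, clustered on chromosome 15 and counterparts of the human drug-metabolising gene CYP2D6, were the large subfamily with estimates nearest to 0. All 8 tested genes overlapped between the groups, 0 had an unadjusted p under 0.05, 2 were above 0, and the median was -0.09. Over all genes tested, 8663 of 11687 overlapped, 9.63% had an unadjusted p under 0.05 with limma and 54.9% were above 0. Cyp2d9, a male-predominant steroid hydroxylase, had 663, 895 and 1010.0 FPKM in knockout livers, against 897 and 1119.9 FPKM in control livers (log2 fold change -0.25, 95% interval -0.68 to 0.18). Cyp2d26 had 404, 477 and 567 FPKM in knockout livers and 497 and 515 FPKM in control livers (log2 fold change -0.08). The remaining Cyp2d estimates were 0.01 for Cyp2d10, -0.09 for Cyp2d13, -0.04 for Cyp2d22, -0.22 for Cyp2d40, -0.12 for Cyp2d12 and 0.11 for Cyp2d11. Cyp2d13 is annotated as a transcribed pseudogene but is counted among the members and in their sums.

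Cyp2j5, an epoxygenase of liver and kidney, had 178, 179 and 212 FPKM in knockout livers and 149 and 201 FPKM in control livers, with overlap (log2 fold change 0.13). Cyp2j6 was at 0.02 and Cyp2j9 at -0.33 on the log2 scale, both overlapping. Cyp2g1, best known from the olfactory mucosa, had 2.80, 3.36 and 4.12 FPKM in knockout livers, against 2.43 and 2.96 FPKM in control livers (log2 fold change 0.32, limma adjusted p = 0.63). Among the 13 members under the level for testing, all knockout values lay above all control values for Cyp2a4 (0.334, 0.351 and 0.480 FPKM in knockout livers, against 0.159 and 0.309 FPKM in control livers) and Cyp3a16, and below them for Cyp2b9, Cyp2b13 and Cyp2j8. Cyp2b13 had 0 FPKM in all knockout livers, against 0.0136 and 0.0148 FPKM in control livers. Cyp2b9 had 0, 0.020 and 0.065 FPKM in knockout livers, against 0.087 and 0.096 FPKM in control livers. Such values lie near 0, and no share of separate groups among all untested genes is given here. Cyp2b9, Cyp2b13 and Cyp2a4 are female-predominant genes, and the livers are given as male.

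Summed over the group means, the 58 members reached 16214 FPKM in knockout livers and 13817 FPKM in control livers, a ratio of 1.17. This was 3.15% of the summed table in knockout livers and 2.70% in control livers. The control sum includes Serpina3k, C3 and Apob (means of 6118, 1457 and 682 FPKM), which are listed at 0 in every knockout liver. Alb, Trf and Apoe are listed at 0 in all livers. The percentages therefore rest on unlike sums and are not shares of all liver RNA. Because values follow no mouse, these sums have no error and were not tested. Cyp2e1 and Cyp3a11 together made up 46.3% of the members' sum in knockout livers and 44.1% in control livers. The Cyp2c sum was 2597 FPKM in knockout livers and 2037 FPKM in control livers (ratio 1.28). The Cyp2a sum was 1506 FPKM in knockout livers and 1093 FPKM in control livers (ratio 1.38), and the Cyp3a sum was 3645 FPKM in knockout livers and 3010.1 FPKM in control livers (ratio 1.21). These subfamilies rest mainly on Cyp2a5 and Cyp3a11. The Cyp2d sum was lower in knockout livers, at 2033 FPKM against 2220.5 FPKM in control livers (ratio 0.916). The tested members had a median coefficient of variation of 16.9% in knockout and 14.0% in control livers, against 10.7% and 8.39% over all genes tested. This difference in spread was not tested.

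**Figure D5:**
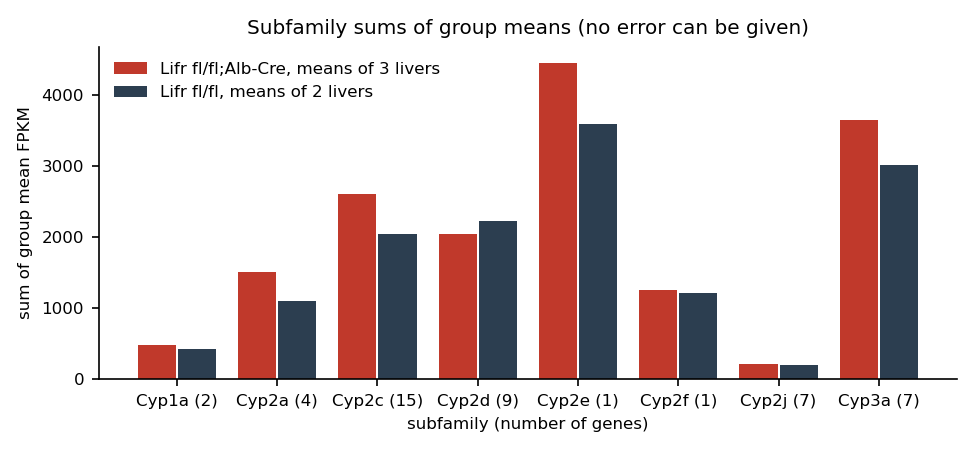
Sums of group mean FPKM, from 0, for the subfamilies above 100 FPKM, with the number of genes in parentheses. Lifr fl/fl;Alb-Cre livers (red, means of 3) stand left of Lifr fl/fl livers (dark, means of 2), and no error can be given. The red bar is the higher one in every pair shown except Cyp2d (2033 FPKM in Lifr fl/fl;Alb-Cre livers against 2220.5 FPKM in Lifr fl/fl livers).

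The members were also grouped by what controls them. The 9 members listed as pericentral all had estimates above 0, with a median log2 fold change of 0.31, and 10 targets of CAR and PXR had 9 above 0 and a median of 0.33, with Cyp2c55 as the exception. In each of these lists 0 members passed with limma. At an unadjusted p under 0.05, 3 pericentral members were higher, and 4 CAR and PXR targets were higher and 1 lower. Over all genes tested, 6.08% were higher and 3.56% lower at that p, and 54.9% were above 0. Of 10 female-biased members 5 were tested, and these (Cyp2b10, Cyp2c38, Cyp2c39, Cyp2c40 and Cyp2c69) were above 0 with a median of 0.59. The gene at that median, Cyp2c39, reached the level for testing only through its knockout values. Of the 5 that were too low to test, Cyp2b9 and Cyp2b13 had every knockout value below every control value, at levels near 0. Cyp2a4 and Cyp3a16 had every knockout value above, and Cyp3a44 overlapped. The 4 male-biased members (Cyp2d9, Cyp2f2, Cyp2j5 and Cyp2u1) had 2 above 0 and a median of -0.10, with 0 called by limma in either list and 2 female-biased members higher and 1 male-biased member lower at an unadjusted p under 0.05. These lists share genes with each other. Like the lists below, they were written with earlier results of these data known.

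Of the 10 genes for redox partners and heme synthesis, Alas1, the rate-limiting enzyme that makes heme for P450s, rose. It had 223, 326 and 368 FPKM in knockout livers, against 94.7 and 150 FPKM in control livers (log2 fold change 1.33, SE 0.24, limma adjusted p = 0.048), and the call was kept in 3 of 8 other settings and in 1 of 5 fits without 1 value (limma adjusted p up to 0.66). The other 9 did not pass, and the list's median was 0.01. P450 reductase, Por, the electron donor of all members, had 108, 173 and 233 FPKM in knockout livers, against 107 and 119.9 FPKM in control livers (log2 fold change 0.52, limma adjusted p = 0.57), with 1 knockout value at the level of the controls. Of 22 receptors and factors that control P450 genes 0 were called by limma and 1 was higher and 1 lower at an unadjusted p under 0.05, with 11 above 0 and a median of 0.01. Among all genes tested, 6.08% were higher and 3.56% lower at that p, and 54.9% were above 0. Foxa3, a liver forkhead factor, had 30.0, 30.2 and 34.2 FPKM in knockout livers and 20.4 and 22.8 FPKM in control livers (log2 fold change 0.54, limma adjusted p = 0.13), and Nr0b2, the bile acid-induced repressor SHP, was at -0.47 (limma adjusted p = 0.37). Ppargc1a was at 0.65 (limma adjusted p = 0.52), and Ahr and Hnf4a were at 0.28 and 0.23. Cebpa was at -0.37 (limma adjusted p = 0.54), with every knockout value just below the controls.

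For the lists below, the shares over all genes tested are 54.9% above 0, and 6.08% higher and 3.56% lower at an unadjusted p under 0.05. Outside the families, 4 AhR targets had estimates from -0.33 to -0.01 with 0 called by limma and 1, Nqo1, lower at an unadjusted p under 0.05, and 19 CAR and PXR targets had a median of 0.05 with Alas1 alone called. At an unadjusted p under 0.05, 5 of these 19 were higher and 0 lower, among them Sult1d1 (mean of 69.4 FPKM in knockout livers against 34.8 FPKM in control livers, limma adjusted p = 0.057) and Tsku (mean of 89.2 FPKM in knockout livers against 39.3 FPKM in control livers, limma adjusted p = 0.096). The 16 pericentral genes had 13 above 0, 0 called by limma, 4 higher and 1 lower at an unadjusted p under 0.05, and a median of 0.25, and they included Oat (0.59), Rhbg (0.79) and Cyp7a1 (0.95) but also Lgr5 (-0.55). The 16 periportal genes had a median of 0.04, with 2 higher and 0 lower at an unadjusted p under 0.05, and Ctsc, a lysosomal protease, rose (log2 fold change 0.72, limma adjusted p = 0.026), a call lost with no filter and without a trend and kept in 2 of 5 fits without 1 value. Of 13 regulators of the growth hormone axis 0 were called by limma, with 2 higher and 1 lower at an unadjusted p under 0.05, and Bcl6, a repressor of female-biased genes in male liver, had 6.61, 7.35 and 12.9 FPKM in knockout livers, against 13.2 and 25.3 FPKM in control livers (log2 fold change -1.09, limma adjusted p = 0.23). Its groups were just separate. Of 27 female-biased genes 13 were tested, with 9 above 0, 6 higher and 1 lower at an unadjusted p under 0.05, 0 called by limma and a median of 0.36. The 26 male-biased genes had 12 above 0, 3 higher and 3 lower at an unadjusted p under 0.05, 0 called by limma and a median of -0.06. Cyp17a1 was at 2.03 (limma adjusted p = 0.055) and Hamp2 at -0.92 (limma adjusted p = 0.29) among the female-biased genes, and Obp2a was at -1.30 (limma adjusted p = 0.065) and C6 at 0.44 among the male-biased ones. The part of the higher Kupffer cell and neutrophil markers in any of these values was not tested.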

How the data were processed

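Liver RNA of 3 Lifr fl/fl;Alb-Cre and 2 Lifr fl/fl mice was sequenced in pairs of reads by the authors. Per the submitters' processing notes and the methods, the authors ran FastQC 0.11.5, aligned the reads to the mm10 genome using TopHat2 2.1.1, filtered for unique alignments using SAMtools 1.5, and obtained the deposited FPKM of each RefSeq gene from Cufflinks 2.2.1. The deposited table also holds a log2 fold, p-value and call per gene from the authors' Cuffdiff comparison, which were not used. The depth per sample is unknown, so precision rests on the spread between mice.

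Genes that averaged 0.5 FPKM or more were compared with limma 3.58.1 in R 4.3.3 (lmFit, eBayes with a trend) on log2(FPKM + 0.1), two-sided, with Benjamini-Hochberg adjustment over 11687 genes and a threshold of 0.05. The pseudocount makes fold changes of low genes too small. On simulated data with 3 knockout and 2 control values, the procedure called 3 of 50 genes at a log2 change of 0.5. It called 29 of 50 at a change of 1, 49 of 50 at 2, and 4 of 11487 unchanged genes. A member that was not called is therefore not shown to be unchanged. Single values were not tested alone, since an exact permutation test of 3 against 2 cannot go below p = 0.2. Alternatives were pseudocounts of 1 and 0.01 FPKM, a minimum of 1 FPKM or no filter, no trend, robust moderation, removal of the median shift, leaving out 1 value per gene, and, chosen after seeing the data, dropping Apob, C3 and Serpina3k, the 3 genes above 100 FPKM in control livers and listed at 0 in knockout livers.

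Coordinates and promoters come from RefSeq (GRCm38.p6), which placed 58 of 58 members and had promoters for 50. Shared stretches and identities come from GENCODE M21 transcripts. The members were taken by their symbols and not by their values. Both the members and the lists were chosen with earlier results of these data known. Members were named where they passed, were the 2 highest of a subfamily, or had separate groups with a log2 fold change of at least 0.5 either way. From lists outside the families, the genes past the threshold were named, or else up to 4 with the lowest unadjusted p, and not every such gene is reported. Genes outside this rule (among them Cyp2c50, Cyp2c54, Cyp2c55, Cyp2c67, Por, Cebpa, Sult1d1, Tsku and the genes listed at 0) were named after their values were seen.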

Additional observations from a re-analysis of the deposited data

How the results depend on the processing

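No paired analysis was possible because the columns follow no single mouse, so replicate numbers carry no values. The count of members called higher, 1 in the report, was 0 with no filter and 0 without a trend, and 0 to 2 when 1 value was left out. The count called lower, 0 in the report, was 1 with robust moderation (Cyp2u1) and 0 to 1 when 1 value was left out. Over all genes the counts called higher and lower were 11 and 5 with no filter and 21 and 11 without a trend, against 42 and 24 in the report, and leaving out 1 value gave 5 to 58 higher and 8 to 32 lower. Lifr kept -1.71 with no filter (limma adjusted p = 0.062) and ranged from -1.89 to -1.52 without 1 value. Log2 fold changes that did not pass changed sign without 1 value, ranging from -0.11 to 0.87 for Cyp1a1, -0.014 to 0.42 for Cyp2c29, -0.20 to 0.041 for Cyp2d26, -0.091 to 0.35 for Cyp2j5, -0.16 to 0.21 for Cyp2j6, -0.28 to 0.22 for Cyp2r1 and -0.14 to 0.57 for Cyp3a25. Cyp2j6 was at -0.00097 with the median shift removed. Without its highest member the ratio of sums, knockout over control, was 1.20 for Cyp2a, 0.269 for Cyp2b and 0.968 for Cyp2j, against 1.38, 1.13 and 1.07 with it. The lists with Alas1, redox partners and CAR and PXR targets, had 0 called with a pseudocount of 1 FPKM and with no filter, and the periportal list had 0 with no filter. No filter raises the number of genes tested and also fits the variance trend with the low genes included. Which of these moved the calls was not tested, nor were the causes of the other changes. With 3 and 2 livers the 95% intervals of single members limit what can be detected.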

Other observations

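The deposited data hold 41 P450 genes of the other families, many of which handle fatty acids, bile acids and sterols. A chosen list that does not cover them all matched 35 genes. Its 26 tested genes had a median log2 fold change of 0.20, with 17 above 0, against 54.9% of all genes tested. With limma 0 were called, and 8 were higher and 0 lower at an unadjusted p under 0.05, against 6.08% and 3.56% of all genes tested. Cyp4a31, a fatty acid hydroxylase of the Cyp4a group, had 2.38, 3.94 and 4.44 FPKM in knockout livers, against 1.38 and 1.60 FPKM in control livers (log2 fold change 1.17, limma adjusted p = 0.088), and its groups were separate. Cyp17a1, a steroid hydroxylase, had 3.63, 6.67 and 9.06 FPKM in knockout livers and 0.931 and 2.08 FPKM in control livers (log2 fold change 2.03, limma adjusted p = 0.055). Cyp39a1, an oxysterol hydroxylase, had 6.73, 10.02 and 17.5 FPKM in knockout livers, against 4.26 and 5.68 FPKM in control livers (log2 fold change 1.09, limma adjusted p = 0.25). Cyp7a1, the rate-limiting enzyme of bile acid synthesis, had 29.5, 49.0 and 74.5 FPKM in knockout livers and 22.5 and 26.9 FPKM in control livers (log2 fold change 0.95, limma adjusted p = 0.30). These 4 genes were named because they had the lowest unadjusted p of the list, so their separate groups are no independent result. Of the 26 tested genes, 9 had every knockout value above every control value, these 4 among them, and 2 had every knockout value below. Over all genes tested the shares were 15.1% and 10.7%.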
